A study of Mus musculus with 6 samples.

Results

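Fatty acid oxidation was followed through 35 genes of mouse aneurysm tissue, chosen by name from the count table: every row whose gene name is on a list of enzymes, carriers and nuclear receptors of the pathway. The list was chosen with earlier results of these data known. All 35 were found among the 54532 genes of the table, and 33 of them had enough reads to be tested. The study sequenced RNA of abdominal aorta from Olfr2 KO mice and from WT mice, each 7 days after an aneurysm had been induced, with 3 libraries per genotype. Olfr2 encodes an odorant receptor, a G protein-coupled receptor first known from the nose. Both genotypes had gone through the induction, so every value describes injured artery and no uninjured aorta enters the comparison. The sources used here do not give the strain, age, knockout allele, way of inducing the aneurysm or any pooling of animals. Where 3 values follow one another for a genotype, they are its replicates 1, 2 and 3 in that order.

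Fatty acids are burned in steps that each have their own enzymes. Acyl-CoA synthetases activate the acid, the carnitine shuttle carries it across the inner mitochondrial membrane, and a cycle of dehydrogenation, hydration, dehydrogenation and thiolysis then shortens it. Electrons of the first dehydrogenation pass through the electron transfer flavoprotein to the respiratory chain, very long and branched chains are first shortened in peroxisomes, and PPAR nuclear receptors drive transcription of many of these genes. Fat cells, heart, skeletal muscle and liver are rich in such transcripts, and smooth muscle cells and macrophages of the artery wall use the pathway too.

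The libraries held 17248918 to 21872027 gene counts. Olfr2 itself had 0 counts in all 6 libraries, where 3 counts, or 0.14 to 0.182 CPM (gene counts scaled to a common library size), is the limit that a count of 0 allows for counting error, so it does not check the genotype labels. The tissue label held against smooth muscle markers, whose 8 genes summed to 1676 to 2590 CPM in KO and 998 to 1463 CPM in WT. Libraries stood apart in markers of fat and skeletal muscle, whose source was not tested. The 12 white adipocyte markers summed to 2549, 1592 and 1759 CPM in KO and to 351, 337 and 1608 CPM in WT. Skeletal muscle markers summed to 1113 CPM in KO replicate 3 and to 6.02 to 18.2 CPM elsewhere, and brown adipocyte markers to 80.6 CPM in KO replicate 2 and to 4.49 to 25.9 CPM elsewhere. In bulk tissue, fewer cells of a type and less RNA per cell cannot be told apart. Each library carries its own numbered code with the genotype, but the labels do not say whether a code names an animal. The tests therefore measure the spread between libraries.

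Upstream sequence of 3 places in the pathway is shown because the genes there lead the results or sit side by side. RefSeq windows on GRCm38.p6, from 250 bases before to 50 bases after a start, were at hand for 29 of the 35 members, 30 windows in all. The members without one were Acaa2, Acat1, Cpt1b, Crat, Decr1 and Hsd17b4. Capitals mark matches to the motifs searched on both strands, each line reads 5′ to 3′ along the strand named, and no annotated exon lies inside any of them. Acadm is shown from chr3:153944644-153944893 on the minus strand, Etfa from chr9:55512244-55512493 on the minus strand, and the gap between the starts of Hadha and Hadhb from chr5:30155163-30155247 on the plus strand.
Acadm: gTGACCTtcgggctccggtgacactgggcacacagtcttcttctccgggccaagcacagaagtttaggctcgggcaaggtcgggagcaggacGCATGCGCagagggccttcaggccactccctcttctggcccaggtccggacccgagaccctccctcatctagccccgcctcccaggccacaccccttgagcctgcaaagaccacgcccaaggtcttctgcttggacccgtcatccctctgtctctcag
Etfa: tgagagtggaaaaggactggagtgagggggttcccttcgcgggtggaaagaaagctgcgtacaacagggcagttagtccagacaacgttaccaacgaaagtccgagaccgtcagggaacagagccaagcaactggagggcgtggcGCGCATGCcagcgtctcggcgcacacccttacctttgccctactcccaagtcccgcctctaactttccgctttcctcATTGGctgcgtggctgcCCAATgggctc
Hadha-Hadhb gap: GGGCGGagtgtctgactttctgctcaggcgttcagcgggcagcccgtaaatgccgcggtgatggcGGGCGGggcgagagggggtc

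The capitals in Acadm are GCATGCGC, the core of the site bound by nuclear respiratory factor NRF1, and a nuclear receptor half-site, AGGTCA, read on the other strand. In Etfa they are the NRF1 core, read on the other strand, and CCAAT boxes in both orientations. In the gap, whose 85 bases separate 2 divergent genes, they are GC boxes, GGGCGG. Across all RefSeq windows of the same length the NRF1 core was present in 2.71%, and among the 30 member windows it was in those of Acadm, Etfa, Etfdh and Ppara. The half-site was in 5 of the 30 (Acadm, Acadvl, Cpt1a, Cpt1c and Echs1), where 16.3% of all windows hold it. A GC box was in 24 of the 30 against 35.7% of all, a CCAAT box in 14 against 37.4%, and the TATA box TATAAA in 0 against 13.6%. Neither the estrogen-related receptor site TCAAGGTCA, which contains the half-site and is in 0.423% of all windows, nor the exact direct repeat of the half-site with 1 base between (0.0396%) occurred in a member window. These are matches of letters, chosen with expression values known, and they describe the windows alone.

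Fatty acid oxidation genes stood higher in KO on average, by little, and no single one passed the test over all genes. Of the 33 tested members 26 had a log2 fold change above 0 (KO over WT), where 51.2% of all 16237 tested genes did. A value in brackets after a gene is this log2 fold change, with its standard error (SE). Their median was 0.23, against 0.01 over all tested genes, and the values ran from -0.24 to 0.72. With the quasi-likelihood test of edgeR and a Benjamini-Hochberg adjusted p under 0.05, 0 members were called, where 0.0123% of all tested genes were. At an unadjusted p under 0.05 there were 11 members higher and 0 lower, beside 5.23% of all genes higher and 6.08% lower. Every KO library exceeded every WT library for 8 members, beside 7.83% of all genes, and lay below for 1, beside 9.01%. Members higher at an unadjusted p under 0.05 numbered 8, 6 and 15 without KO replicates 1, 2 and 3. Over all genes these fits had 681 of 16670, 774 of 16543 and 709 of 16656 higher. Without WT replicates 1, 2 and 3 the members higher numbered 7, 6 and 13. Over all genes those fits had 987 of 16652, 674 of 16724 and 931 of 16656 higher. Without WT replicate 1 there was also 1 member lower, Acaa1a, beside 1197 of all genes.

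**Figure D1:**
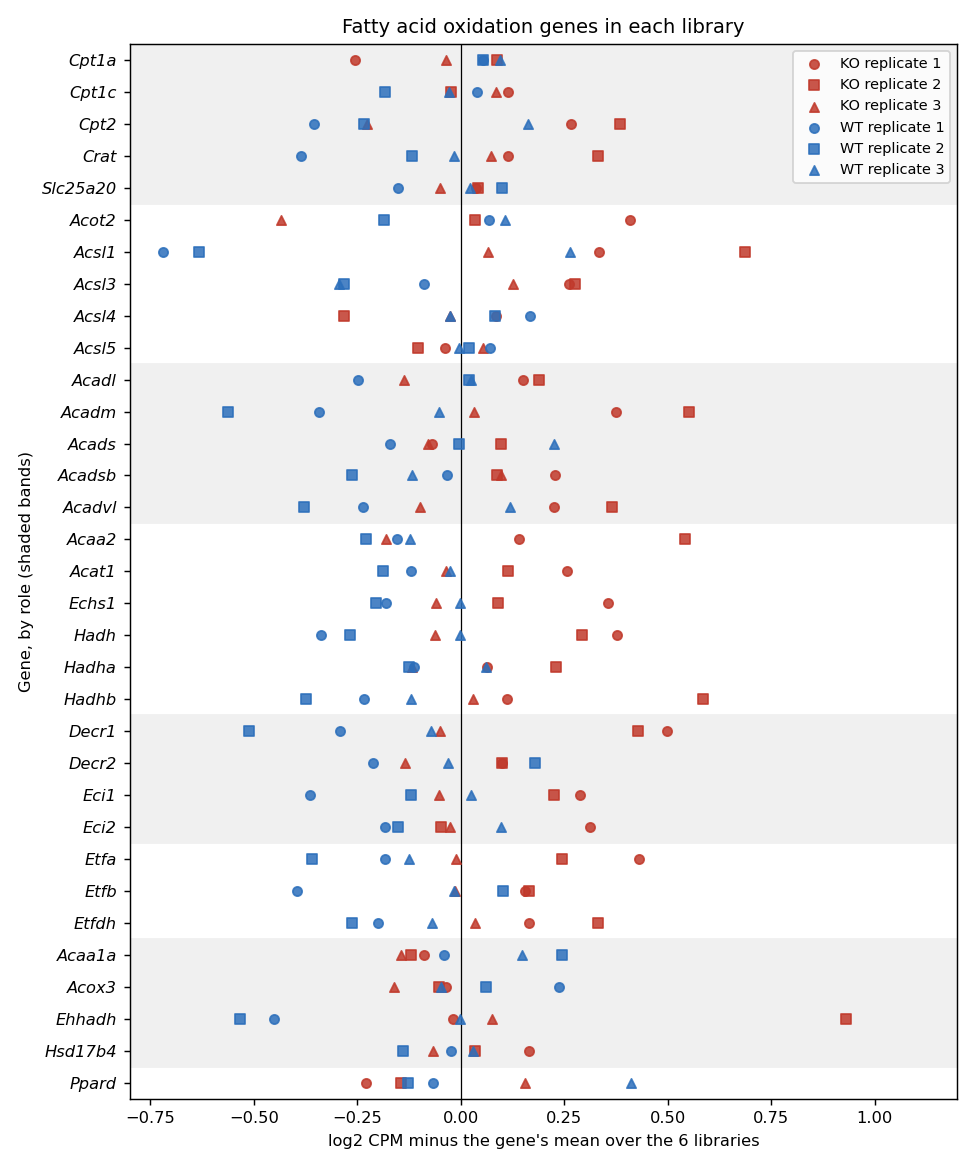
Each point is 1 library's log2 CPM of a gene (prior count 2) minus that gene's mean over the 6 libraries, KO in red and WT in blue, with genes grouped by role. KO replicate 1 is the highest library for 11 genes and KO replicate 2 for 13, WT replicate 1 the lowest for 11 and WT replicate 2 for 14, and WT replicate 3 lies above both other WT libraries in 23.

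The acyl-CoA dehydrogenases, which take the first step of each cycle and differ in the chain length they prefer, were led by the medium-chain enzyme. Acadm (ENSMUSG00000062908, GRCm38 chromosome 3, 153922357 to 153944632, minus strand, protein-coding) stood at 87.9, 99.3 and 69.3 CPM in the KO libraries and 53.5, 45.9 and 65.3 CPM in the WT libraries. Every KO library exceeded every WT library, KO replicate 3 (69.3) by the least, being just above WT replicate 3 (65.3). The fitted log2 fold change of Acadm was 0.64 (SE 0.17; Benjamini-Hochberg adjusted p = 0.201, edgeR). Acadsb, for short branched chains of isoleucine breakdown, measured 79.01, 71.7 and 72.3 CPM in KO and 65.9, 56.3 and 62.2 CPM in WT, again without overlap and with a smaller fold change (0.27, SE 0.11). Acadvl, the very-long-chain enzyme on the inner membrane, stood 0.33 higher on the log2 scale (SE 0.17) with overlapping libraries. Of its exon bases 42.9% overlap Dvl2 on the other strand, so its count is uncertain. The long-chain enzyme Acadl (0.14, SE 0.13) and the short-chain enzyme Acads (-0.04, SE 0.14) differed by about their standard error or less. The sign of Acads turned without WT replicate 3 (0.07).

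The electron transfer flavoprotein collects electrons from all of these dehydrogenases. Its alpha subunit gene Etfa (chromosome 9, 55454508 to 55512243, minus strand) stood at 76.9, 67.6 and 56.6 CPM in KO and 50.2, 44.4 and 52.3 CPM in WT, again without overlap, and differed by 0.45 (SE 0.13). Etfdh, the membrane oxidoreductase that hands the electrons to ubiquinone (chromosome 3, 79603788 to 79629500, minus strand), read 42.00, 47.2 and 38.4 CPM in KO and 32.6, 31.2 and 35.7 CPM in WT. It too showed no overlap, at 0.36 (SE 0.12). The beta subunit gene Etfb (at most 12.5 CPM in KO, 8.43, 11.9 and 10.99 CPM in WT) overlapped between genotypes, with a difference of 0.19 (SE 0.18). Of its exon bases 58.2% are shared with the same-strand genes Gm45233, at 0 counts in all 6 libraries, and Mir7051, so its level is uncertain. The adjusted p-values of Etfa and Etfdh were 0.248 and 0.3 (edgeR, Benjamini-Hochberg). This was the role with the highest median, 0.36 over 3 genes.

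The later steps of the cycle are carried by the trifunctional protein and by soluble matrix enzymes. All 6 of these genes had a log2 fold change above 0, with a median of 0.32. The trifunctional protein's beta chain Hadhb, the long-chain thiolase (chromosome 5, 30155248 to 30184593, plus strand), stood at 73.6, 102 and 69.5 CPM in KO and 57.8, 52.4 and 62.6 CPM in WT. KO replicate 2 was by far the highest library, and the genotypes did not overlap (0.50, SE 0.16, adjusted p = 0.268, edgeR, Benjamini-Hochberg). Without KO replicate 2 the log2 fold change of Hadhb was 0.32 (SE 0.13). Its partner Hadha, the alpha chain with hydratase and dehydrogenase activity, starts across the 85-base gap shown above and runs the other way (30118304 to 30155162, minus strand). Hadha stood at 158, 177 and 139 CPM in KO and 139.8, 139 and 158 CPM in WT, overlapping, with a log2 fold change of 0.12 (SE 0.12). The count ratio of Hadhb to Hadha was 0.466, 0.577 and 0.499 in KO and 0.414, 0.378 and 0.398 in WT. All KO ratios were above all WT ratios, a difference of 0.37 on the log2 scale (exact permutation test, two-sided, p = 0.1, the smallest that 3 against 3 allows). The pair was picked for this ratio after its values were seen.

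Among the soluble enzymes, Hadh, the short-chain hydroxyacyl-CoA dehydrogenase, stood at 60.1, 56.7 and 44.3 CPM in KO and 36.6, 38.4 and 46.2 CPM in WT. KO replicates 1 and 2 were above every WT library while KO replicate 3 (44.3) lay under WT replicate 3 (46.2), and the log2 fold change was 0.41 (SE 0.15). Acaa2, a mitochondrial thiolase, was highest in KO replicate 2, at 60.8, 80.3 and 48.6 CPM in KO and 49.5, 46.99 and 50.6 CPM in WT (0.37, SE 0.17). Without that library it stood at 0.16 (SE 0.14). The hydratase Echs1 (0.26, SE 0.13) and the acetoacetyl-CoA thiolase Acat1 (0.23, SE 0.11) overlapped between genotypes, with KO replicate 1 the highest library for both, and stood at 0.14 and 0.15 without it.

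Unsaturated fatty acids need auxiliary enzymes before they fit the cycle. Decr1, the mitochondrial 2,4-dienoyl-CoA reductase (chromosome 4, 15917240 to 15945507, minus strand), stood at 55.02, 52.4 and 37.6 CPM in KO and 31.8, 27.3 and 37.01 CPM in WT. KO replicates 1 and 2 were clearly highest, and KO replicate 3 (37.6) and WT replicate 3 (37.01) were nearly level. Decr1 differed by 0.59 on the log2 scale (SE 0.17, adjusted p = 0.236, edgeR, Benjamini-Hochberg). Its peroxisomal counterpart Decr2 stood at 24.7, 24.7 and 20.9 CPM in KO and 19.8, 26.1 and 22.5 CPM in WT, a log2 fold change of 0.04 (SE 0.15), whose sign turned without KO replicate 1 or without WT replicate 1. The enoyl-CoA isomerases Eci1 (0.31, SE 0.15) and Eci2 (0.16, SE 0.14) overlapped between genotypes.

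Of the 5 tested genes of the carnitine shuttle 4 had a log2 fold change above 0, with a median of 0.11. Cpt1a, the malonyl-CoA-sensitive gate of the carnitine shuttle, stood at 117, 149 and 137 CPM in KO and 146, 146 and 149.9 CPM in WT. KO replicate 1 was the lowest library, the genotypes overlapped, and the log2 fold change was -0.13 (SE 0.12). Cpt1b, the muscle form of the gate, had 5, 10 and 10 counts in KO libraries and 5, 4 and 10 in WT libraries. It was too low to be tested, and 81.4% of its exon bases are also annotated to Gm44502, a same-strand gene with 0 counts in every library, so this low level is uncertain. Cpt1c, the form best known from neurons, stood at 26.6, 24.2 and 26.1 CPM in KO and 25.3, 21.6 and 24.1 CPM in WT (0.11, SE 0.12).

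Behind the gate, the carrier Slc25a20 (42.4, 42.6 and 39.9 CPM in KO, 37.2, 44.3 and 42.02 CPM in WT) had a log2 fold change of 0.02 (SE 0.11), whose sign turned without WT replicate 1 and with the covariate described further on. Cpt2, which releases acyl-CoA in the matrix, stood at 42.4, 46.04 and 30.1 CPM in KO and 27.6, 29.95 and 39.4 CPM in WT (0.29, SE 0.19). Here KO replicates 1 and 2 and WT replicate 3 were the high libraries, and leaving out single libraries moved Cpt2 between 0.17 (without KO replicate 2) and 0.46 (without WT replicate 3). It was 0.19 without WT replicate 1 and 0.45 without KO replicate 3. Crat, which makes acetyl-carnitine, was the shuttle gene without overlap, at 56.1, 65.2 and 54.4 CPM in KO and 39.6, 47.7 and 51.2 CPM in WT (0.34, SE 0.13). Of its exon bases 8.72% overlap the opposite-strand genes Dolpp1 and Gm16323, so its count is uncertain. Smaller shares of exon overlap also touch Etfdh (3.7%), Acaa1a (6.57%), Acox3 (6.08%), Acsl3 (5.6%), Acsl5 (8.31%), Cpt1c (6.53%), Eci2 (3.41%), Echs1 (1.71%) and Hadha (0.859%).

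The synthetases and the thioesterase had a median of 0.04, with 3 of 5 above 0. Acsl1, the main synthetase of fat, heart and liver (chromosome 8, 46471037 to 46536051, plus strand), stood at 127, 162 and 105 CPM in KO and 61.04, 64.9 and 121 CPM in WT. Of its exon bases 9.91% overlap Gm45244 on the other strand, so its count is uncertain. WT replicate 3 stood above KO replicate 3 and at 1.92 times the mean of the other WT libraries. Acsl1 differed by 0.68 on the log2 scale (SE 0.27, adjusted p = 0.378, edgeR, Benjamini-Hochberg). Without WT replicate 3 it was 1.06 (SE 0.19) and passed, with an adjusted p of 0.0472 by the same edgeR test, over alternatives that ran from 0.0186 to 0.999. It was then the member called, where 0.931% of genes were. Acsl3, linked to lipid droplets, was lower per length (2.27 CPM per kb in WT against 7.84 for Acsl1). It stood at 13.8, 13.97 and 12.6 CPM in KO and 10.8, 9.46 and 9.38 CPM in WT, without overlap (0.44, SE 0.15), and WT replicate 3 was its lowest library. Acsl4, which prefers arachidonic acid (-0.14, SE 0.12), and Acsl5 (-0.06, SE 0.10) overlapped between genotypes. The thioesterase Acot2, which frees fatty acids in the matrix, stood at 9.12, 7.01 and 5.03 CPM in KO and 7.17, 6.002 and 7.37 CPM in WT (0.04, SE 0.24). Its sign turned with limma-voom, with that covariate, without KO replicate 1 and without WT replicate 2, and near-identical Acot genes can share its reads.

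Of the 4 members grouped under peroxisomal oxidation, which leaves Decr2 among the auxiliary enzymes, 2 were above 0 and 2 below. Acaa1a, a peroxisomal thiolase (chromosome 9, 119339676 to 119350299, plus strand), stood at 123, 120.3 and 118 CPM in KO and 127, 155 and 145 CPM in WT. It was the 1 member whose KO libraries all lay below the WT libraries (-0.24, SE 0.11, adjusted p = 0.468, edgeR, Benjamini-Hochberg). Reads can be shared with its close copy Acaa1b, at 0.121 to 2.30 CPM, so its count is uncertain. Acox3, an oxidase for branched chains, had its lowest library in KO and overlapped (75.9, 75.00 and 69.6 against 91.7, 81.2 and 75.2 CPM, -0.17, SE 0.11). Ehhadh, the bifunctional enzyme of straight chains, stood at 6.20, 12.1 and 6.62 CPM in KO and 4.57, 4.30 and 6.27 CPM in WT (0.72, SE 0.30), and without KO replicate 2 its log2 fold change was 0.35 (SE 0.26). KO replicate 2 alone stood far above the rest, and it is also the library with the most Ucp1, the uncoupling protein of brown fat, at 16.1 CPM against 0.0544 to 2.48 CPM elsewhere. Hsd17b4, the bifunctional enzyme of branched chains, differed by 0.09 (SE 0.11).

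By level per length, the nuclear receptors Ppard and Ppara ranked 28 and 35 among the 35 genes in WT. Ppara, the receptor that drives these genes in liver, had 3, 28 and 3 counts in the KO libraries and 9, 1 and 6 in WT, and was not tested. Its one higher library was again KO replicate 2. Ppard, the broadly expressed form (chromosome 17, 28232700 to 28301474, plus strand), stood at 28.7, 30.5 and 37.5 CPM in KO and 32.2, 30.9 and 44.8 CPM in WT. WT replicate 3 was the highest, the log2 fold change was -0.16 (SE 0.17), and without WT replicate 3 it was 0.03. Per kilobase of exon, mean levels in WT were highest for Acadl (46.8 CPM per kb), Acaa2 (32.3), Acaa1a (32.2) and Etfa (26.7). In KO the order was Acadl (51.5 CPM per kb), Acaa2 (41.7), Etfa (36.5) and Acaa1a (27.3). The ranges of Acadl and Acaa2 overlapped in KO, but Acadl was higher within each KO library (54.3, 55.7 and 44.5 against 40.1, 52.9 and 32.0). Acaa2 and Acaa1a changed order between WT libraries, and Acaa2 and Etfa between KO libraries, so the order within those pairs is uncertain. Cpt1a (19.2 CPM per kb in WT) exceeded Cpt1c (4.22) and Cpt1b (0.108), and Ppard (4.79) exceeded Ppara (0.0778). Exon length here joins all annotated isoforms, which lowers the per-length level of genes with long, rarely used exons.

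The WT libraries lowest in white adipocyte markers, a list that shares no gene with the 35, were also lowest in the pathway. The mean log2 CPM of the 33 members was 5.66, 5.70 and 5.46 in KO and 5.33, 5.33 and 5.52 in WT. WT replicate 3, the WT library rich in adipocyte transcripts, lay above KO replicate 3. Among the 4 libraries other than WT replicates 1 and 2 the levels did not follow the marker sum. KO replicate 2 had the highest member mean and the lowest sum of them, 1592 CPM. This depended on the measure. By mean log2 CPM of the same markers, KO replicates 1 and 2 (6.16 and 5.70) stood above WT replicate 3 (5.38) and KO replicate 3 (5.37). On that measure only KO replicates 1 and 2 changed places against the order by member mean. Of the 33 members 23 were higher in WT replicate 3 than in both other WT libraries, beside 29.4% of all tested genes, and 4 were lower than in both. The median ratio of WT replicate 3 to the mean of the other 2 was 1.12 for members and 0.988 for all tested genes, with Acsl1 (1.92), Ppard (1.42), Ehhadh (1.41) and Cpt2 (1.37) the highest. Adipoq, the gene of the fat hormone adiponectin, stood at 191, 91.5 and 123 CPM in KO and 20.2, 21.6 and 96.4 CPM in WT. All 12 white adipocyte markers had a higher mean in KO, 4 without overlap, and none of the 12 was at 0 in any library.

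**Figure D2:**
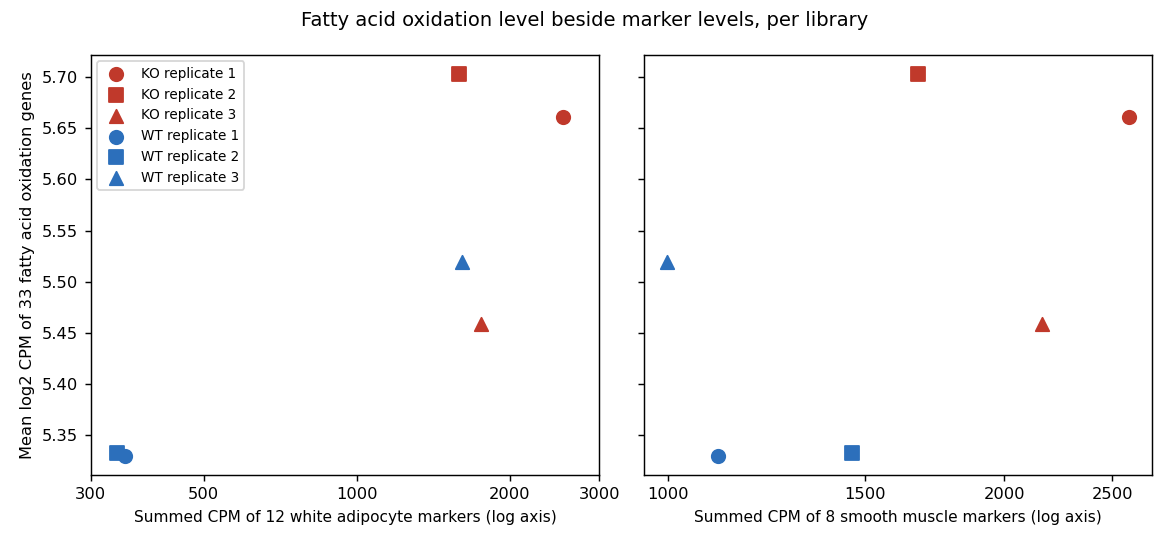
Each point is 1 library; the vertical axis is the mean log2 CPM of the 33 tested members and the horizontal axes are summed CPM of white adipocyte (left) and smooth muscle markers (right), on log scales. WT replicates 1 and 2 sit lowest on the left at 351 and 337 CPM and 5.33, and WT replicate 3 sits at 1608 CPM and 5.52 beside KO replicate 3.

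With the white adipocyte score (mean log2 CPM of the 12 markers) as a covariate in the same edgeR model, the member difference was close to 0. The median log2 fold change of members was then 0.01, and 17 of 33 were above 0, beside 52% of all genes. At an unadjusted p under 0.05 there were 0 members higher, beside 2.17% of genes. The score itself was 6.16, 5.70 and 5.37 in KO and 3.03, 3.07 and 5.38 in WT, so it partly follows genotype. WT replicate 3 is the WT library whose score lies near those of KO. The fit keeps 3 residual degrees of freedom and cannot tell adipocyte content and genotype apart. Whether adipocyte content caused the member difference was not tested. Acsl1 went from 0.68 to -0.01 (SE 0.25), Hadh to 0.10 (SE 0.20), Acadm to 0.30 (SE 0.23) and Decr1 to 0.25 (SE 0.24). Acsl3 went from 0.44 to 0.51 (SE 0.26), Hadhb from 0.50 to 0.37 (SE 0.26) and Acaa1a from -0.24 to -0.28 (SE 0.19). The sign turned for 9 members, among them Acadvl (-0.04), Cpt2 (-0.13) and Eci2 (-0.11). By role, the electron transfer flavoprotein kept the highest median among roles, 0.22, and the dehydrogenases stood at -0.02.

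**Figure D3:**
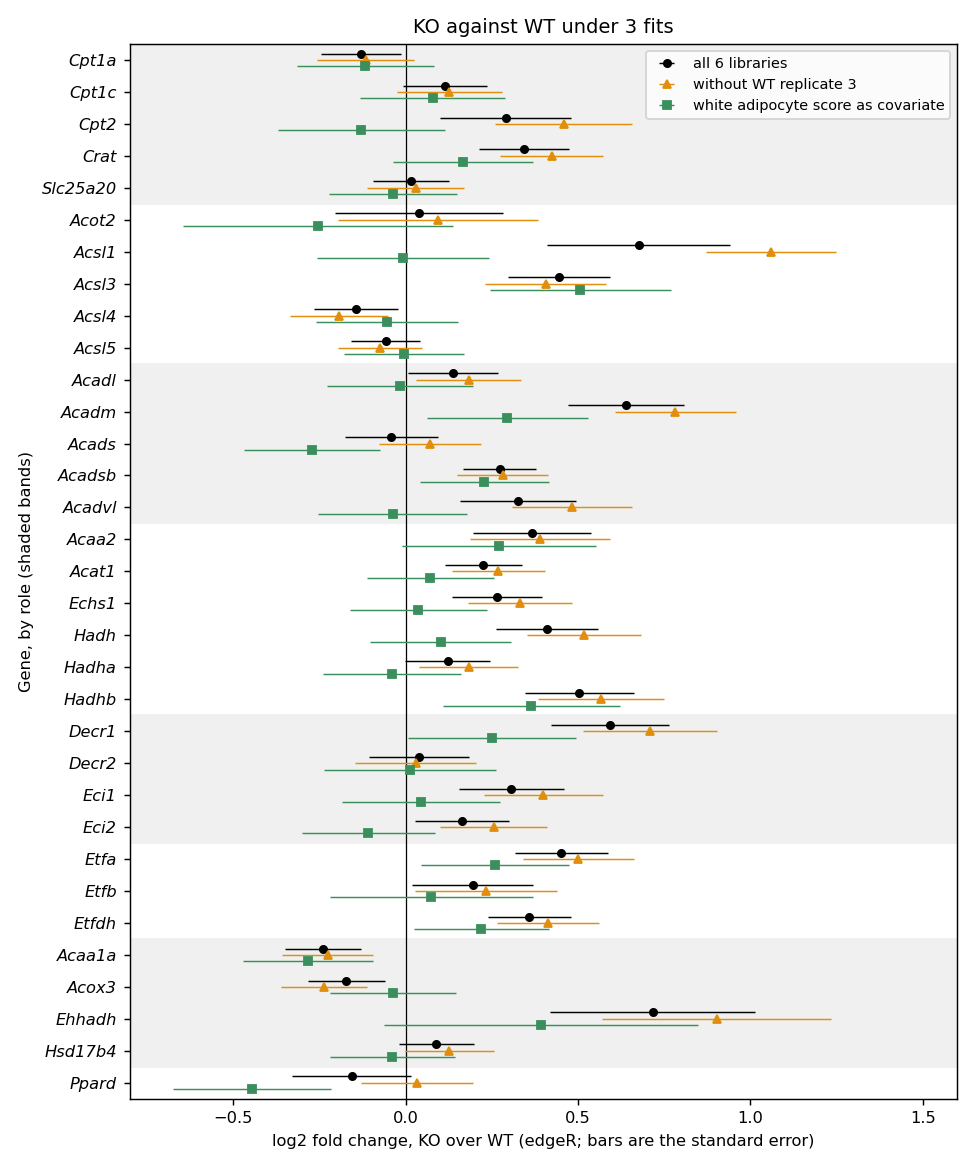
Points are log2 fold changes, KO over WT, by edgeR with bars of 1 standard error: black for all 6 libraries, orange without WT replicate 3, green with the white adipocyte score as covariate. Acsl1 sits at 1.06 without WT replicate 3 and at -0.01 with the covariate, while Acsl3 sits at 0.41 and 0.51.

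Other markers also moved with genotype. Their part in the member values, like that of the adipocyte markers, was not tested. Smooth muscle markers were higher in KO for 8 of 8 genes and T cell markers lower for 8 of 8, each without overlap between genotypes. T cell markers summed to 172 to 205 CPM in KO and 264 to 325 CPM in WT. Macrophage markers (3385 to 4272 CPM in KO, 3649 to 5569 CPM in WT), endothelial markers (570.2 to 749 and 543 to 794) and fibroblast markers (2095 to 2325 and 2001 to 2272) overlapped. Cardiac muscle markers summed to 6.29 to 12.3 CPM in KO and 6.10 to 9.02 CPM in WT, with Nppa, Myh6 and Myl7 at or near 0. KO replicate 3, richest in skeletal muscle markers, was the highest library for 0 of the 33 members, beside 14.9% of all tested genes. Without it the median was 0.29. KO replicate 2, richest in brown adipocyte markers, was the highest library for 13 of the 33, beside 14.1% of all tested genes, and without it the median was 0.17. Of the brown markers, Cidea was at 0 in WT replicates 1 and 2 and at 1.96 CPM in WT replicate 3, and it read 3.27, 27.5 and 1.12 CPM in KO, so the genotypes overlapped.

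Calls of single members depended on the fit. DESeq2 called Acadm (0.64, Benjamini-Hochberg adjusted p = 0.0271), where it called 2.8% of genes. With limma-voom 0 members were called, where 0 of 16237 genes were. At an unadjusted p under 0.05 it had 10 members higher, beside 858 of 16237 genes. Without a filter on low counts edgeR called Acadm, Acsl1 and Decr1, where 2.18% of genes were called. The same genes were called with KO replicate 3 and WT replicate 3 left out together, where 1.26% were, at 0.92 for Acadm, 1.198 for Acsl1 and 0.87 for Decr1.

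Genes next to the pathway were read from 9 lists of 73 genes, of which 71 were tested. These lists too were chosen with earlier results of these data known. The edgeR test called 0 of them, where 0.0123% of all tested genes were called. With limma-voom 0 of them were called, where 0 of all tested genes were. Of the 71, 53 had a log2 fold change above 0 (51.2% of all genes did), with a median of 0.24. An unadjusted p under 0.05 was found for 21 higher and 3 lower genes, beside 5.23% and 6.08% of all genes. DESeq2, which called 2.8% of all genes, called 6 of the 71 higher (Cd36, Lpl, Prkaa2, Acad11, Hibch and Pparg) and 1 lower. Uptake, binding and lipolysis had the highest list median, 0.54, with 10 of 11 above 0. Lipoprotein lipase, Lpl, which frees fatty acids from circulating triglyceride, stood at 275, 343 and 312 CPM in KO and 78.8, 94.2 and 142 CPM in WT (1.56, SE 0.21). The fatty acid transporter gene Cd36 stood at 289.6, 245 and 229 CPM in KO and 70.4, 85.5 and 118 CPM in WT (1.48, SE 0.19). Both showed no overlap, had adjusted p-values of 0.102 and 0.101 (edgeR, Benjamini-Hochberg), and stood at 1.10 and 0.98 with the adipocyte covariate. The monoglyceride lipase Mgll (0.77) and the transporter Slc27a1 (0.69) were the next by p in that list.

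In the list of malonyl-CoA control and fuel choice 8 of 10 were above 0. Prkaa2, a catalytic subunit of the energy sensor AMPK, was low but without overlap (4.25, 3.43 and 6.48 CPM in KO, 1.30, 1.58 and 2.01 CPM in WT, 1.53, SE 0.33), while its partner form Prkaa1 had -0.05 (SE 0.10). The carboxylases that make malonyl-CoA, Acaca (0.81, SE 0.31) and Acacb (0.997, SE 0.47), overlapped between genotypes, and WT replicate 3 was the highest WT library for both. Acacb stood at 0.51 without KO replicate 2 and at 1.72 without WT replicate 3. Ucp2, a mitochondrial carrier abundant in leukocytes, was lower in all KO libraries (594, 634 and 701 against 741, 969 and 898 CPM, -0.43, SE 0.15).

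Upkeep of the electron transfer flavoprotein had a median of 0.45 over 5 genes. The flavin carrier Slc25a32 (0.49, SE 0.14) and Etfrf1, a regulator of the flavoprotein (0.45, SE 0.14) showed no overlap, Etfbkmt, a methyltransferase of the beta subunit, had 0.61 and Flad1, which makes FAD and shares 43.8% of its exon bases with Lenep, had -0.18. In the list of matrix enzymes that break down branched chains and propionate, 7 of 7 were above 0, with Hibch of valine breakdown (0.76, SE 0.17), Pcca, a subunit of propionyl-CoA carboxylase (0.69, SE 0.22), and Mut, methylmalonyl-CoA mutase (0.40, SE 0.15) without overlap and Pccb at 0.34. Of the other peroxisomal genes 6 of 9 were above 0, with Scp2 at 0.32 and Abcd2 at 0.62. Among further dehydrogenases, synthetases and thioesterases 7 of 10 were above 0, with Acad11 (0.72) and Acad8 (0.27) higher and the peroxisomal thioesterase Acot8 (-0.33) lower in all KO libraries, and Ivd at 0.23.

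PPAR partners and other regulators had a list median of 0.02 over 10 genes. Pparg, the fat cell receptor, was the one without overlap (32.2, 23.4 and 22.2 CPM in KO, 11.9, 17.8 and 16.8 CPM in WT, 0.74, SE 0.20). The coactivator Ppargc1a, at most 1.31 CPM, had 1.01 (SE 0.58; 0.64 without WT replicate 1 and 1.78 without WT replicate 3), Nrip1 0.21 and Rxra -0.09, the last of which turned its sign without WT replicate 3. Ketone body genes had 4 of 5 above 0, with Oxct1, which spends ketone bodies, at 0.38 (SE 0.12), Bdh1 at 0.18 and Bdh2 at 0.17. For carnitine supply the median was 0.01 over 4 tested genes, and Tmlhe, the first enzyme of carnitine synthesis (0.41, SE 0.18), was alone without overlap, beside Aldh9a1 at -0.10. The signs of the carnitine transporter Slc22a5 (0.02) and of Crot (0.00) turned under several left-out libraries.

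**Figure D4:**
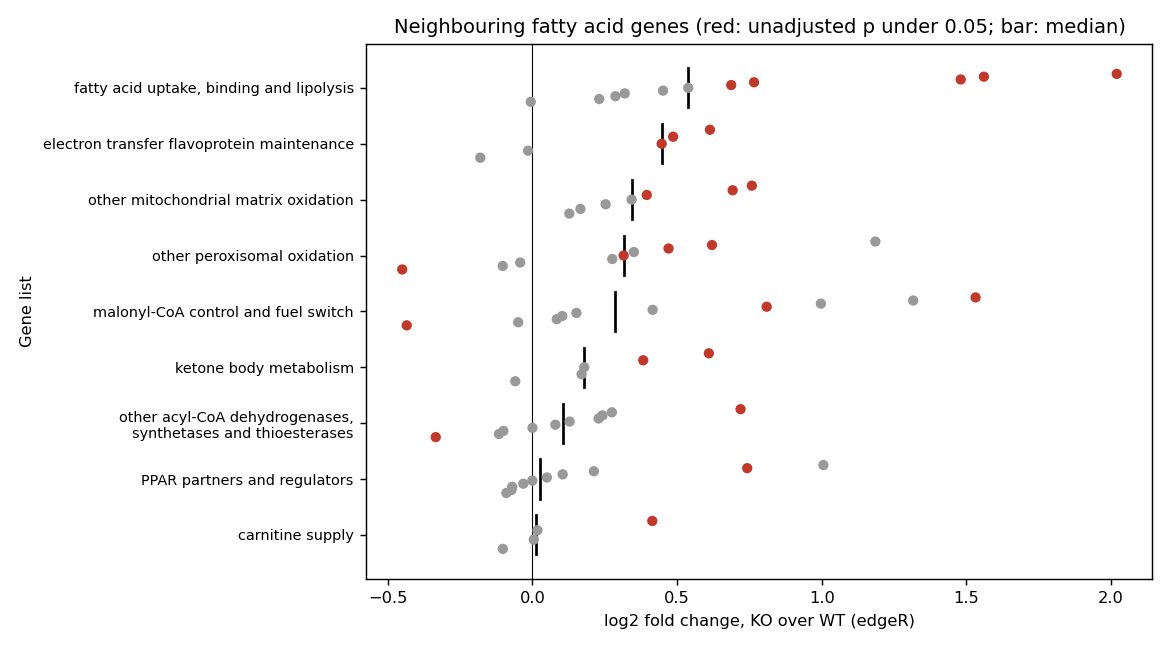
Each point is the edgeR log2 fold change, KO over WT, of 1 of 71 tested genes next to the pathway, grouped by list, red where the unadjusted p is under 0.05 and with a bar at the list median. The uptake list has the highest median (0.54), carnitine supply (0.01) and the PPAR partners (0.02) the lowest.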

How the data were processed

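RNA from abdominal aorta was bound to poly-T beads and primed with random hexamers, per the labels' protocols. The authors' deposited table holds raw read counts per gene. Per the submitters' processing notes, HISAT2 2.0.5, featureCounts 1.5.0-p3 and GRCm38 were used. The sources used here do not give the strand setting or how reads shared by several genes were treated. Counts were filtered by filterByExpr, scaled by TMM and tested with edgeR 4.0.16 (limma 3.58.1, R 4.3.3), KO against WT, over 16237 genes with Benjamini-Hochberg adjustment and a threshold of 0.05. Standard errors are the log2 fold change divided by the square root of F. CPM uses TMM-scaled totals, and positions and lengths come from GENCODE mouse release 21. No 2 libraries were repeats of 1 (chi-square per degree of freedom at least 22.5). Alternatives used other scalings and filters, DESeq2 1.42.0, limma-voom, a replicate block, a covariate and left-out libraries. Members and lists were chosen with earlier results of these data known. By rule, members without overlap, the 12 of smallest p, Cpt1a, Cpt1b, Ppara and Ppard are given per library, with up to 4 genes per neighbouring list; some of these are not reported here. Other members, Prkaa1, Acaa1b, Ucp1 and Cidea were added. Figures used matplotlib 3.10.9.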

Additional observations from a re-analysis of the deposited data

How the results depend on the processing

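Over 16 alternatives the members above 0 numbered 24 to 28 of 33 (28 of 35 without a filter on low counts), except for 17 with the white adipocyte score as covariate, where the median log2 fold change was 0.013. In the other 15 that median ran from 0.149 to 0.315. Members called numbered 3 without a filter on low counts, 1 with DESeq2, 3 with KO replicate 3 and WT replicate 3 left out together, and 0 to 1 with single libraries left out. Genes called over the whole table, 2 as reported, numbered 644 without the filter, 454 with DESeq2, 206 without that pair, 0 with limma-voom (858 higher and 987 lower at an unadjusted p under 0.05), 0 with the covariate (353 and 446) and 0 to 155 with 1 library left out. The cause of these shifts was not tested.

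With the replicate block 0 genes were called (717 higher and 889 lower at an unadjusted p under 0.05), 0 members were called and 9 were higher at an unadjusted p under 0.05, where there were 11 without it. Same-numbered KO and WT libraries deviated from their group means with correlations of -0.101, -0.062 and -0.12, none of them correlating best with its own number. These values gave no sign that the numbers pair the libraries, and 3 libraries per genotype are too few to settle it. Under other scalings (DESeq2 size factors, upper quartile, library size alone) the median of all genes stayed within 0.00 to 0.04 and 26 members were above 0 in each. Depth limits Cpt1b and Ppara, with at most 28 counts in a library.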
